A study of Mus musculus with 99 samples.

Results

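The Zic genes described here, Zic1, Zic2, Zic4 and Zic5, encode zinc-finger transcription factors, and all 4 were found by name among the 55341 gene names of the deposited count table. The genes were followed over 16 RNA sequencing (RNA-seq) libraries and over the ChIP-seq peak lists of every antibody within 2.5 kb of each gene. The genes were selected on a measured value, the lower level of Zic2 and Zic5 in cells with the catalytically dead RING1B I53S, where both genes lie on distal chromosome 14, so that difference between lines is given below as a description with no test.

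The study asked whether the enzymatic activity of RING1B is needed for Polycomb repression. The cells were mouse embryonic stem cells (ESCs) grown in 2i/LIF, with ROSA26::creERT2, RING1A-/- and RING1B fl/fl in all RING1B lines: the Parental line, and clones that stably express a FLAG-HA-tagged RING1B WT or RING1B I53S from a pCAG transgene after puromycin selection. Addition of 4-hydroxytamoxifen (OHT, 0.5 µM) for 72 h activates the recombinase and removes the floxed RING1B (+OHT), whereas ethanol-treated cells keep it (−OHT). Parental +OHT cells then have neither RING1A nor RING1B, and RING1A is absent from the −OHT controls of these lines too. Eed fl/fl ESCs, which also carry ROSA26::creERT2, were compared with and without OHT in the same way. The paper lists 2 clones of this line, and the labels do not give the clone of each replicate. Each of the 8 RNA-seq groups had 2 replicates. P-values measure the spread between replicates, estimated over all groups fitted together and partly shared across genes. A clone's own properties cannot be told apart from those of its transgene. The peak lists came from the same RING1B lines, from derivatives that lack MTF2 (MTF2 KO), and from a few libraries treated for 48 h.

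ZIC proteins are close relatives of the GLI and GLIS zinc-finger proteins and are known for roles in the neural plate, the neural crest and the cerebellum. Zic2 and Zic5 are also active in pluripotent cells, whereas Zic1 and Zic4 are known mainly from the developing nervous system. In ESCs, developmental genes are typically held by 2 Polycomb complexes: PRC1, in which RING1A or RING1B ubiquitinates histone H2A (H2AK119ub1), and PRC2, which contains SUZ12 and EED and methylates histone H3 (H3K27me3).

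The genes lie in 2 pairs in the genome (mm10). Zic1 (ENSMUSG00000032368.14, chr9:91358058-91365810, minus strand) and Zic4 (ENSMUSG00000036972.14, chr9:91362413-91389348, plus strand) lie head to head, and their spans overlap by 3398 bp. Zic5 (ENSMUSG00000041703.7, chr14:122456795-122465677, minus strand) and Zic2 (ENSMUSG00000061524.8, chr14:122475435-122479852, plus strand) form a second head-to-head pair with 9757 bp between them. Reads were counted without strand, so reads from the 60 exon bases that Zic1 and Zic4 share, 1.05% of the exon length of Zic1, cannot be told apart. The counted exon length of Zic4 also meets the gene model Gm37477, and 5.11% of it is shared with one or the other gene.

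The sequence before the start of Zic1 is shown against that of Zic5 because the peak lists cover the first far more often than the second. The bases are from RefSeq on GRCm38.p6 and run 5′ to 3′ on the strand of the gene. They end at the base before the gene span given above, leave out any exon, and have each CG dinucleotide in capitals. Zic1 is chr9:91365811-91366018 and Zic5 is chr14:122465678-122465908.
Zic1: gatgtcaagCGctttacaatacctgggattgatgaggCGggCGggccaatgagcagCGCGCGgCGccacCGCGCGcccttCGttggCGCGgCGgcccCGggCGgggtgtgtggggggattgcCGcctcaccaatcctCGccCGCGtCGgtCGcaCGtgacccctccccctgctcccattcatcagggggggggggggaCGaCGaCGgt
Zic5: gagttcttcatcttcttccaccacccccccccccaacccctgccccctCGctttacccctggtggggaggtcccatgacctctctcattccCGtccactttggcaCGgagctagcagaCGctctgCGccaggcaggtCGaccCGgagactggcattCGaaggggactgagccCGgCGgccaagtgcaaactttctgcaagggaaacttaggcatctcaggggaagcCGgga
The 208 bases of Zic1 held 26 CG dinucleotides and were 71.2% G or C, and the 231 bases of Zic5 held 11 and were 62.3%. The full 250 bases before the RefSeq start include 42 annotated exon bases in Zic1 and 19 in Zic5, which are not printed. Over these 250 bases, 91.4% of 32851 RefSeq promoters had fewer CG dinucleotides than Zic1. For Zic5, 64.4% had fewer, against a median promoter with 6. A peak met the printed bases of Zic1 in 31 antibody libraries and those of Zic5 in 6. Zic4 had few CG dinucleotides and was covered as often as Zic1. Its sequence is not printed because all 250 bases before its RefSeq start are annotated as exon. They held 4 CG dinucleotides, 37.8% of promoters had fewer, and a peak met them in 32 libraries, as many as met the full 250 bases of Zic1. The letters CACGTG, which read the same on both strands, occurred 1 time in the Zic1 window and are found in 6.02% of promoters. GCGGGAA, found on either strand in 3.82% of promoters, and CCTGCTG, found in 8.44%, were in neither window.

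The 16 RNA-seq libraries held between 6957248 and 12743460 counted reads. The defining ESC markers were present in every group, and the summed level of all 8 was 5086 to 6440 normalized counts (CPM, reads scaled to the TMM-adjusted library size) in Parental −OHT cells and 2736 to 2864 in Parental +OHT cells. With OHT, summed markers of primitive endoderm stood at 48.7 to 50.4 CPM in Parental cells, where they had been at 3.09 to 3.504, with 6 of 6 above 1 CPM, and neural markers at 75.6 to 88.1, where they had been at 73.4 to 106. Mesoderm markers went from 8.16 to 11.7 up to 25.6 to 26.4 CPM, trophoblast markers from 111 to 131 up to 152 to 185, and fibroblast markers from 11.9 to 14.01 up to 45.7 to 48.4 with Dcn and Lum at 0. The part of these other cell types in the Zic values was not tested, and in bulk RNA fewer cells that express a gene and less RNA per cell cannot be told apart. Total counts of Rnf2, which encodes RING1B, were 198 and 257 CPM in Parental −OHT cells and 144 and 167 in +OHT cells, a change that was not called (log2 fold change -0.55), and reads from the coding sequence of the transgenes fall under the same gene name.

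Per length of exon, the Zic genes fell into 2 sets in Parental −OHT cells. Zic2 was at 9.38 RPKM (the CPM divided by the exon length in kb) and Zic5 at 6.58 (means, n = 2). Zic4 was at 0.00788 RPKM and Zic1 at 0. With OHT the order kept Zic2 at the top, now at 2.19 RPKM, followed by Zic5 at 1.15, Zic1 at 0.908 and Zic4 at 0.116. Zic2 and Zic5 were apart in Parental −OHT cells by more than the SDs of 1.74 and 0.166 RPKM, while in +OHT cells Zic5 and Zic1 differed by less than the SD of 0.435 RPKM of Zic1.

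**Figure D1:**
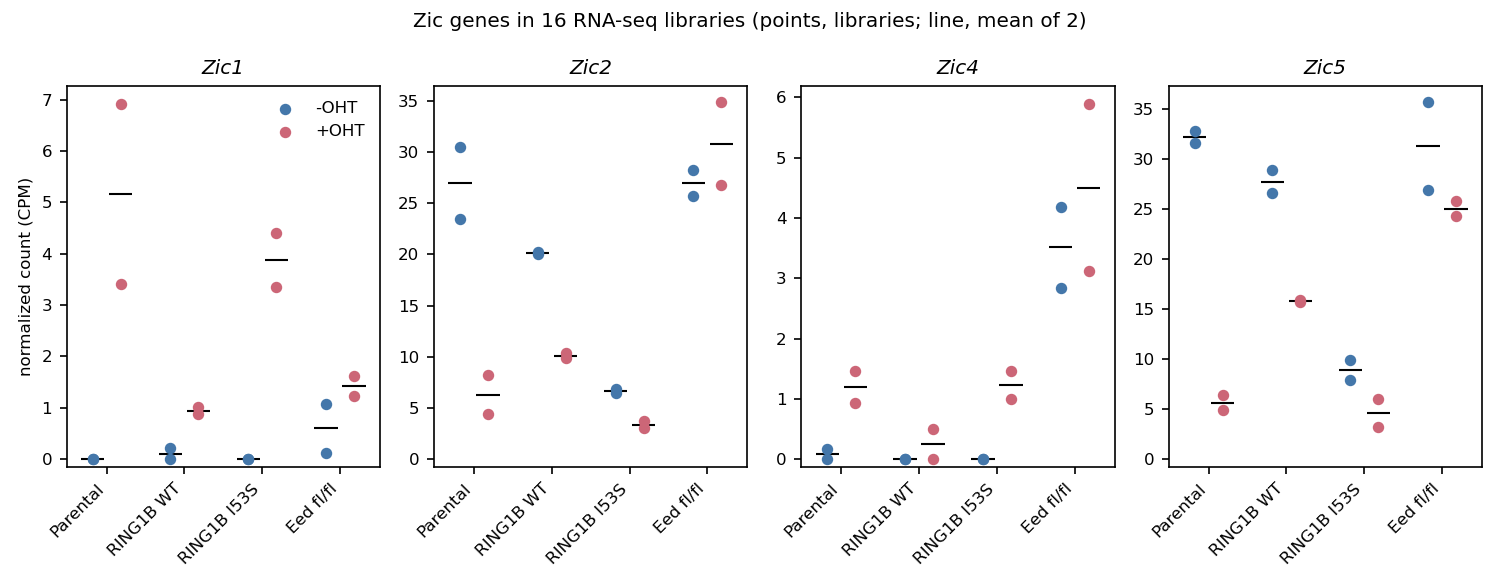
Normalized counts (CPM, linear axis from 0, its own scale in each panel) of the 4 Zic genes in the 16 RNA-seq libraries by line, with −OHT libraries in blue, +OHT libraries in red and a bar at the mean of 2. Zic5 fell in the Parental line from a mean of 32.2 to 5.64 CPM, and its Eed fl/fl libraries lie between 24.3 and 35.7 CPM.

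The first comparison asked how the genes responded to the removal of RING1B in the Parental line. The active genes Zic2 and Zic5 fell, and the silent genes Zic1 and Zic4 rose. All 4 were called by edgeR's quasi-likelihood test with Benjamini-Hochberg adjustment over 18154 tested genes (adjusted p under 0.05 and a change of 1.5 or more on the log2 scale): 2 of 4 higher, where 15.1% of all tested genes were called higher, and 2 of 4 lower, where 1.83% were called lower. Zic1 and Zic4 passed the filter on low counts only through their +OHT libraries, so a rise was the only change that they could show. With 2 libraries against 2, lack of overlap is common: in Parental cells 38.1% of tested genes had both +OHT libraries above both −OHT libraries and 32.7% had them below. The shares were 26.9% and 24% in RING1B WT, 31.5% and 25.8% in RING1B I53S, and 22.1% and 15.5% in Eed fl/fl cells.

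Zic5, the partner of Zic2 on chromosome 14, was at 31.6 and 32.8 CPM in Parental −OHT cells and at 6.40 and 4.87 CPM in +OHT cells. The +OHT libraries lay far below the −OHT libraries with no overlap, and the gene fell by 2.51 on the log2 scale (SE 0.28, edgeR adjusted p = 2.019e-06).

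Zic2, a gene of forebrain and neural tube development, was at 23.5 and 30.5 CPM in Parental −OHT cells and at 4.44 and 8.19 CPM in +OHT cells. Both +OHT libraries were below both −OHT libraries, although they differed from each other more than those of Zic5 did, and Zic2 fell by 2.098 on the log2 scale (SE 0.29, edgeR adjusted p = 1.913e-05). Both active genes thus kept their order per length.

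Zic1, a regulator of neural plate border and cerebellar cells, had no read in either Parental −OHT library and 40 and 71 reads, 3.42 and 6.92 CPM, in the +OHT libraries. Every +OHT library was above the −OHT libraries. Zic1 was at least 34.3-fold higher with OHT, computed against a floor of 3 counts over the group, and was called by edgeR (adjusted p = 2.141e-05).

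Zic4, the cerebellar partner of Zic1, had 2 and 0 reads in Parental −OHT cells and 11 and 15 in +OHT cells, or 0.163 and 0 CPM against 0.939 and 1.46 CPM. The ratio was 12.1 with a counting interval (95%, exact) from 3.02 to 105, and edgeR called the gene (log2 fold change 3.48, SE 1.15, adjusted p = 0.02536). The call rested on few reads: it was lost without any one of the 4 Parental libraries, with adjusted p from 0.0566 without −OHT replicate 1 and 0.0652 without +OHT replicate 1 to 0.144 without +OHT replicate 2 and 0.171 without −OHT replicate 2, and DESeq2 gave an adjusted p of 0.0703.

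**Figure D2:**
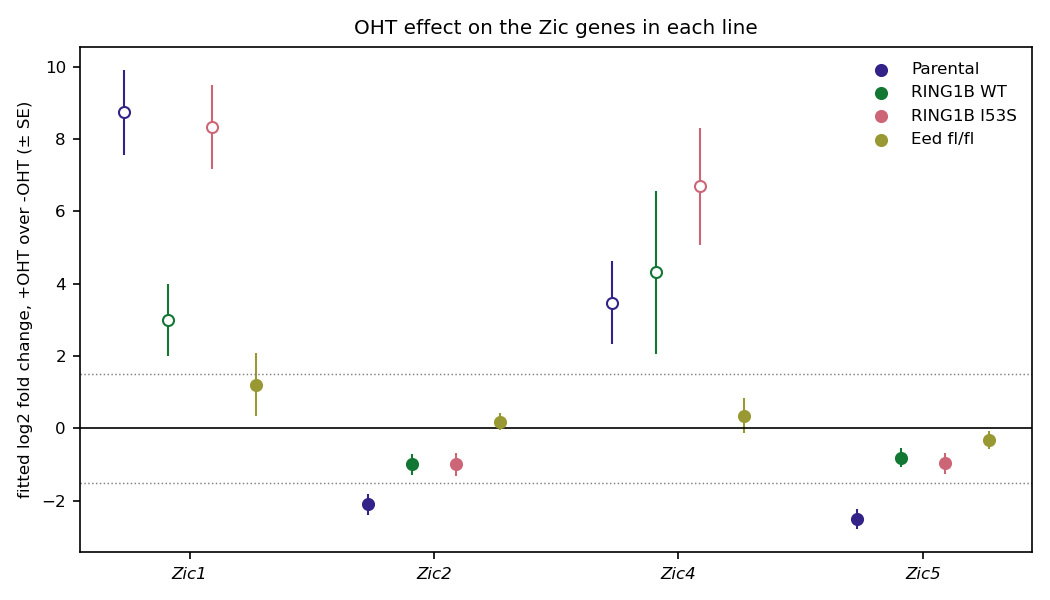
Fitted log2 fold change of +OHT over −OHT (points, with SE as bars) for each Zic gene in 4 lines, with dotted lines at the threshold of 1.5 in both directions; open points mark genes with at most 3 reads in the −OHT group, whose fitted size depends on the prior count. In the Parental line Zic2 and Zic5 sit at -2.098 and -2.51, while in Eed fl/fl cells they sit at 0.19 and -0.32.

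The next comparison asked whether RING1B WT kept the genes at their level when the endogenous protein was removed. Zic2 and Zic5 again had lower values with OHT, and Zic1 had more reads. None of the 4 genes was called in RING1B WT cells by edgeR, where 1.34% of all genes were called higher and 0.0386% lower; 3 of 4 had an unadjusted p under 0.05, as had 15.8% of all tested genes, and DESeq2 called 0 of 4 and 294 genes in all. The 251 genes that edgeR called in this comparison became 25 without RING1B WT −OHT replicate 2 and 30 without +OHT replicate 2.

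Zic2 was at 20.2 and 20.1 CPM in RING1B WT −OHT cells and at 10.4 and 9.84 CPM in +OHT cells (log2 fold change -0.99, SE 0.28, edgeR adjusted p = 0.07295). Zic5 was at 28.9 and 26.5 CPM and at 15.9 and 15.7 CPM (log2 fold change -0.81, SE 0.27, edgeR adjusted p = 0.1165). In both genes the 2 conditions did not overlap. Zic1 had 2 and 0 reads without OHT and 10 and 7 with it, a ratio of 8.74 with a counting interval from 2.07 to 78.0 (edgeR adjusted p = 0.1259). Zic4 had no read without OHT and 0 and 4 reads with it (edgeR adjusted p = 0.3665), so its 2 conditions overlapped at 0.

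The difference between the RING1B WT and Parental responses was tested directly, as an interaction. Of the 4 genes, 1 was called higher, Zic5, and 0 lower, where 0.435% of tested genes were called higher and 1.1% lower (279 genes, and from 88 without RING1B WT +OHT replicate 1 to 277 without RING1B WT −OHT replicate 2 when 1 of the 8 libraries was left out). The response of Zic5 was 1.70 higher on the log2 scale in RING1B WT cells (SE 0.38, edgeR adjusted p = 0.02479). The call for Zic5 was lost without any one of 7 of the 8 libraries compared, with values from 1.52 to 1.91 and adjusted p from 0.0585 to 0.145, and held without Parental −OHT replicate 1 (adjusted p = 0.04655). Zic2 had a difference of 1.10 (SE 0.40, edgeR adjusted p = 0.1793), and Zic1 and Zic4, with 2 reads or fewer in either −OHT group, were not called (adjusted p = 0.2302 and 0.8495).

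The levels with OHT were also compared directly between RING1B WT and Parental cells, a comparison added after the data were seen. Of the 4 genes, 1 was called lower in RING1B WT cells, Zic1, and 0 higher, where 7.62% of tested genes were called lower and 1.06% higher, with 4 of 4 and 31.8% of all tested genes at an unadjusted p under 0.05. Zic1 was at 1.01 and 0.872 CPM in RING1B WT +OHT cells, below both Parental +OHT libraries, a difference of -2.43 on the log2 scale (SE 0.61, edgeR adjusted p = 0.009671). That call was lost without any one of 3 of the 4 libraries, both RING1B WT replicates and Parental +OHT replicate 2, with values of -2.54, -2.34 and -1.84 and adjusted p = 0.07507, 0.06964 and 0.1535. Zic5 was higher in RING1B WT cells by 1.48 on the log2 scale (SE 0.29, edgeR adjusted p = 0.001439), just under the fold threshold. Zic2 had a difference of 0.69 (edgeR adjusted p = 0.1171) and Zic4 of -2.32 (edgeR adjusted p = 0.1282). Zic1 and Zic4 passed the filter on low counts through +OHT libraries of the other lines and not with RING1B WT libraries alone. A lower level in RING1B WT cells was therefore the favoured outcome for both genes.

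Without OHT, where endogenous RING1B is present in all lines, none of the 4 genes was called between RING1B WT and Parental cells (edgeR, adjusted p = 1 for each; 0 of 4 with an unadjusted p under 0.05; DESeq2 called 0; 0.0606% of all tested genes called in either direction). Differences were -0.42 for Zic2 and -0.22 for Zic5 on the log2 scale.

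In RING1B I53S cells the endogenous protein was replaced by one with no catalytic activity. Zic1 and Zic4 rose with OHT: 2 of 4 were called higher, where 12.8% of all genes were, and 0 of 4 lower by edgeR, where 1.04% were, with 4 of 4 and 37.7% of all tested genes at an unadjusted p under 0.05 in either direction, and with 2 of 4 and 2267 genes in all called by DESeq2. Zic1 had no read in the −OHT libraries and 44 and 39 in the +OHT libraries, 4.41 and 3.36 CPM, at least 29.9-fold higher (edgeR adjusted p = 4.661e-05). Zic4 had no read without OHT and 10 and 17 reads, 1.00 and 1.46 CPM, with OHT, at least 9.74-fold higher (edgeR adjusted p = 0.004882). Neither gene overlapped between conditions. As in the Parental line, both passed the filter on low counts only through +OHT libraries. The 4 of 4 above include Zic2 and Zic5, whose lower level in this line chose them. Cell type markers moved in this line as well: the summed ESC markers were at 4372 to 5535 CPM without OHT and 2768 to 2857 with it, primitive endoderm markers at 4.605 to 4.713 and 38.4 to 39.1, and fibroblast markers at 14.8 to 15.5 and 39.6 to 49.9, and their part in the Zic values was not tested.

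In RING1B I53S cells Zic2 was already low without OHT, at 6.88 and 6.43 CPM, and was at 3.71 and 3.01 CPM with it (log2 fold change -0.99, SE 0.32, edgeR adjusted p = 0.02557). Zic5 was at 7.96 and 9.88 CPM and at 6.02 and 3.19 CPM (log2 fold change -0.96, SE 0.29, edgeR adjusted p = 0.01979). Neither change of the pair reached the fold threshold, although their conditions did not overlap either. The −OHT level in these cells is part of the lower level that chose both genes, so their p-values are given with that limit.

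The difference between the RING1B I53S and Parental responses was called by edgeR for no gene of the table (0% of 18154, with 488 at an unadjusted p under 0.05; DESeq2 called 0). For Zic1, with no read in either −OHT group, the fit could not estimate a difference (SE 1006). Zic4, with no read in I53S −OHT cells and 2 in Parental −OHT cells, had an adjusted p of 1. For Zic2 and Zic5, whose −OHT level in I53S cells chose them, the differences of 1.11 and 1.54 are a description.

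In Eed fl/fl cells none of the 4 genes was called after OHT (edgeR; 0 of 4 with an unadjusted p under 0.05; DESeq2 called 0), in a comparison where 0.00795% of 25170 tested genes were called higher and 0% lower, with 1372 at an unadjusted p under 0.05 and 38 called by DESeq2. That background was not stable: edgeR called 23 genes without −OHT replicate 1, 262 without −OHT replicate 2, 26 without +OHT replicate 1 and 32 without +OHT replicate 2. Counts of Eed itself were 255 and 173 CPM without OHT and 67.1 and 43.7 CPM with it (log2 fold change -1.95, SE 0.32, edgeR adjusted p = 0.0766), so even the targeted gene was not called. This fit used no replicate block. With a block, edgeR called 161 genes in all and no Zic gene.

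Zic2 was at 28.3 and 25.7 CPM in Eed fl/fl −OHT cells and at 26.8 and 34.9 CPM in +OHT cells, an overlap (log2 fold change 0.19, SE 0.25). Zic5 was at 35.7 and 26.9 CPM and at 24.3 and 25.8 CPM, just below with no overlap (log2 fold change -0.32, SE 0.25). Zic1 and Zic4, silent or nearly so in the RING1B lines without OHT, both had reads here. Zic1 had 1 and 9 reads without OHT and 13 and 10 with it (log2 fold change 1.21, SE 0.86). Zic4 had 23 and 35 reads and 25 and 48 reads, 2.84 and 4.18 CPM against 3.11 and 5.89 CPM, and overlapped between conditions (log2 fold change 0.36, SE 0.48). EdgeR adjusted p for these 4 genes ran from 0.8372 to 0.9055. The Eed fl/fl libraries are another ESC line and were scaled and fitted apart, so no level is tested against the RING1B lines.

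The lower level of Zic2 and Zic5 in RING1B I53S cells, the value that chose the genes, was present with and without OHT. Without OHT, Zic2 was lower by -2.01 on the log2 scale against Parental cells and by -1.60 against RING1B WT cells, and Zic5 by -1.85 and -1.64. With OHT, the differences from Parental cells were -0.90 for Zic2 (-1.29 to -0.41 when 1 library was left out) and -0.31 for Zic5 (-0.82 to 0.0753), and those from RING1B WT cells were -1.59 and -1.79.

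The pair shared this lower level with most genes around it. Of the 33 tested genes of chromosome 14 that start no more than 4.48 Mb before Zic2 or beyond it, 31 (93.9%) were lower in RING1B I53S than in Parental −OHT cells, with a median log2 difference of -0.97 and an all-gene median of 0.01. The 33 include Zic2 and Zic5 themselves, which were chosen for this lower level. Against RING1B WT cells the median of these 33 was -1.10 without OHT and -1.08 with it, and against Parental +OHT cells it was -0.93. RING1B WT cells had a median of 0.08 against Parental cells over the same genes. Zic2 and Zic5 were the fourth and the fifth lowest of the 33 against Parental −OHT cells but the 18th and the 30th lowest against Parental +OHT cells, in which both had fallen.

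The lower level was not limited to the end of the chromosome. In bins of 10 Mb, medians of I53S against Parental −OHT cells ran from -0.07 to 0.15 for bins before 70 Mb, were -0.81 from 70 to 80 Mb, between -0.83 and -0.47 in the 4 bins after it, and -0.97 from 120 to 130 Mb, where 21 of 21 genes were lower. From 72 Mb on, a start chosen after the plot along the chromosome was seen, 125 tested genes had a median of -0.91 with 88% below 0, whereas 474 genes before 72 Mb had a median of 0.00 with 49.2% below 0. The quartiles of the 125 genes were -1.16 and -0.55, and Zic2 and Zic5 were lower than the first of these. Both are themselves counted among the 125 genes and among the 21 of the last bin. The cause of the lower level was not tested.

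**Figure D3:**
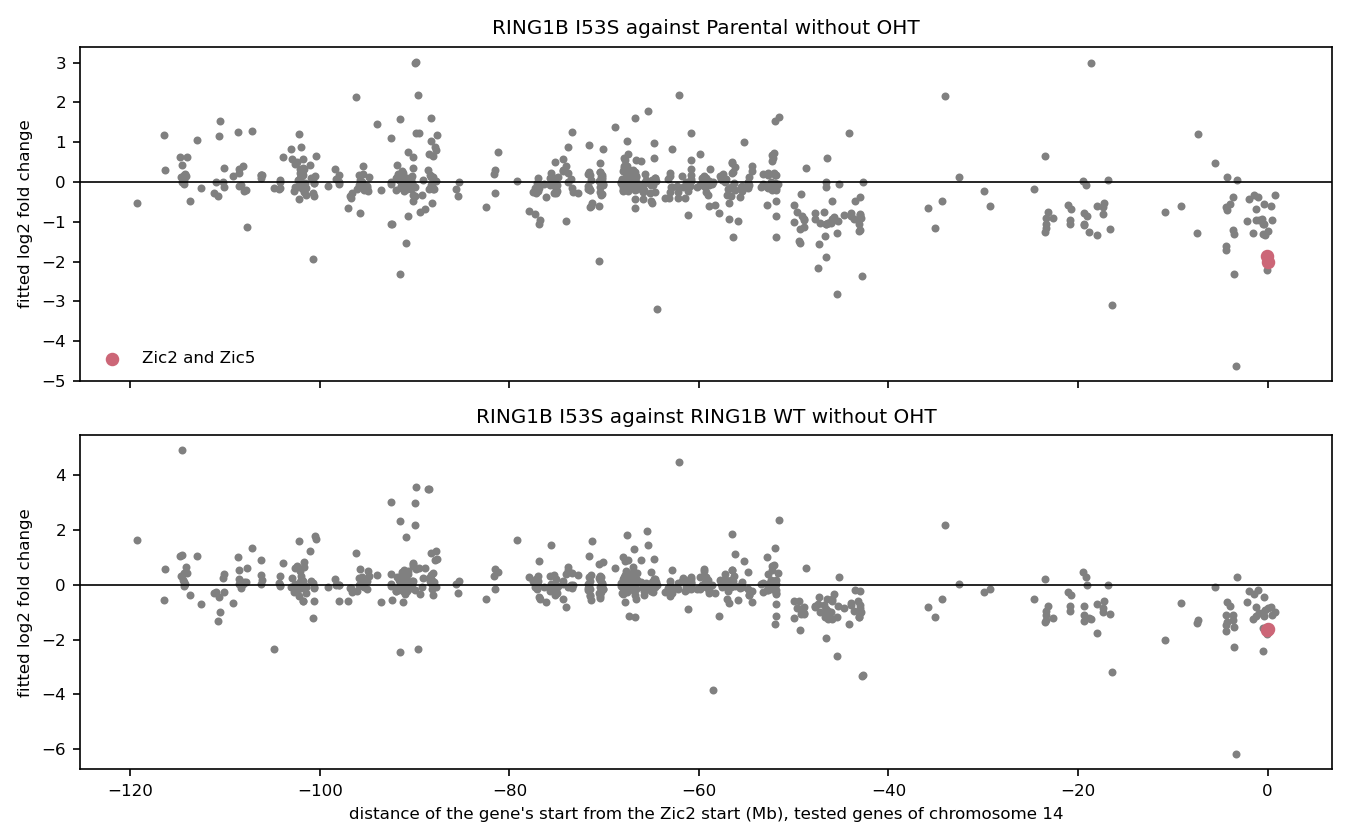
Fitted log2 difference of RING1B I53S −OHT cells from Parental cells (upper panel) and from RING1B WT cells (lower panel) for each tested gene of chromosome 14, against its distance in Mb from the start of Zic2; Zic2 and Zic5 are in red. Most genes from about 50 Mb before Zic2 to the end lie below 0, with Zic2 at -2.01 and Zic5 at -1.85 in the upper panel.

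Within 500 kb, Zic2 and Zic5 have 10 tested neighbours, and all 10 were lower in RING1B I53S than in Parental −OHT cells, from -2.23 for 2610035F20Rik to -0.55 for A330035P11Rik. Of these neighbours only 2610035F20Rik, a gene model that ends 0.236 kb before the start of Zic2, was also called after OHT in the Parental line, where it fell by 2.46 on the log2 scale (SE 0.57, edgeR adjusted p = 0.002194). It was not called in RING1B WT (-1.66, edgeR adjusted p = 0.1374) or RING1B I53S cells (-2.002, edgeR adjusted p = 0.05787). Pcca, which encodes a mitochondrial carboxylase subunit, and Clybl, a mitochondrial enzyme, lie closest on either side and were not called. Zic1 and Zic4 had 1 tested neighbour, Gm5620, which was not called.

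Across the 12 libraries of the RING1B lines Pearson's r of log2 CPM was 0.938 for Zic2 and Zic5 and 0.892 for Zic1 and Zic4, against -0.682 for Zic1 and Zic2. These libraries share lines and the OHT treatment, so r is a description. They include the 4 RING1B I53S libraries, whose low values chose Zic2 and Zic5, so the r of that pair and the genes most like either are partly fixed by the choice. The genes most like Zic1 were Foxd2os (r = 0.990), Hoxd11 (0.990) and Rhox6 (0.988). Zic4 was closest to Barhl2 (0.989), Arsi (0.987) and Slc9a2 (0.981). Zic2 was closest to Rlim (0.958), Zic5 and Foxo4 (0.918), and Zic5 to Klf5 (0.964), Tmem40 (0.958) and Klf12 (0.949). Klf5 and Klf12 also lie on chromosome 14, and the part of position in these values was not tested.

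Related gene groups were read against the shares of all tested genes given above. These were 15.1% higher and 1.83% lower in Parental cells and 12.8% and 1.04% in RING1B I53S cells. In RING1B WT cells they were 1.34% and 0.0386%. In Eed fl/fl cells they were 0.00795% and 0%, so almost no gene was called there. Zic1 is known to act in the neural plate border, roof plate and neural crest. Of 16 tested genes of this list, 16 were called higher and 0 lower in Parental cells after OHT (median log2 fold change 4.99, all genes 0.03). In RING1B WT cells 3 were higher (median 1.46), in RING1B I53S cells 13 (median 3.62) and in Eed fl/fl cells 0 (median 0.43). The 16 tested in Eed fl/fl cells held Snai2 in place of Dlx5. Genes of this list with few reads without OHT could pass the filter on low counts only through +OHT libraries. A rise was therefore the favoured outcome for such genes, and the list was chosen with earlier results of these data known. Pax3, a neural crest regulator, rose by 5.82 in Parental cells (SE 0.45, edgeR adjusted p = 2.495e-08), and Msx1, a regulator of the plate border, by 4.72 (SE 0.58, edgeR adjusted p = 4.897e-06).

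Of 10 naive pluripotency genes, 3 were lower and 1 higher in Parental cells (median -1.21), with Klf2, a transcription factor of the naive state, at -2.48 and Zfp42 at -2.03. None was called in RING1B WT cells (median -0.31), and 3 were lower in RING1B I53S cells (median -0.89). Of 13 formative and primed pluripotency genes, 3 were higher and 1 lower in Parental cells (median 0.66), and 5 were higher and 2 lower in RING1B I53S cells (median 0.50). The 3 of 13 higher in Parental cells are not far from the share of all genes. Pou3f1 rose by 3.13, while Etv5 fell by 2.28. Among the 6 Gli and Glis relatives of the Zic genes, Glis1 alone was called, a share close to that of all genes, higher by 2.68 in Parental cells (SE 0.65, edgeR adjusted p = 0.003354) and by 2.72 in RING1B I53S cells (SE 0.67, edgeR adjusted p = 0.004692).

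The peak lists located Polycomb proteins at these genes. A peak is a region called by MACS2 in a ChIP library against input, and its score is −log10 of the caller's p-value, which grows with the depth of the library, so scores are given as found and not tested, with 1 library per condition for most antibodies. Over 69 libraries of 12 antibodies, a peak lay within 2.5 kb of Zic1 in 55, Zic4 in 56, Zic2 in 46 and Zic5 in 30. The 4 input lists had none at any Zic gene. Because the spans of Zic1 and Zic4 overlap, many of their peaks are the same regions.

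In Parental −OHT cells, where 12 antibodies were used, 12 lists had a peak at Zic1, Zic2 and Zic4 and 9 at Zic5. RING1B peaks scored up to 215 at Zic1, 46.8 at Zic2 and 13.98 at Zic5, in a list where 10.4% of all genes had a peak. SUZ12 followed the same order, with 619 at Zic1, 143 at Zic2 and 27.4 at Zic5, against 17.1% of all genes with a peak. H3K27me3 was found at Zic1 (33.0), Zic4 (37.6) and Zic2 (30.2), and not at Zic5. SUZ12 peaks covered 13656 bases at Zic1 and 2564 at Zic5, counted around gene bodies of unequal length, and the active gene Zic5 had the lowest scores of RING1B and SUZ12.

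After OHT in Parental cells, the lists of PCGF2, a PRC1 subunit, and of CBX7, the subunit that reads H3K27me3, had no peak at any Zic gene, where they had 309.9 and 1016 at Zic1 before. The share of all genes with a CBX7 peak went from 10.4% to 0.156% and that with a PCGF2 peak from 10.3% to 0.255%. The loss was not particular to the Zic genes. RING1B had 1 remaining peak, at Zic2 (11.1), where 1.14% of all genes had one. PCGF6, another PRC1 subunit, kept peaks at Zic1 and Zic4 (20.2), Zic2 (20.4) and Zic5 (16.75), where 10.9% of all genes had one. SUZ12 remained at Zic1 (53.8) and Zic2 (48.9) but not at Zic5, with 12.1% of all genes still carrying a peak. H3K27me3 remained at Zic1 (32.7) and Zic2 (15.8), where 14.5% of all genes had a peak.

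The list of H2AK119ub1, the mark laid down by RING1A and RING1B, kept peaks in Parental +OHT cells, at Zic1 (30.7), Zic2 (75.8) and Zic5 (26.6), and 11.6% of all genes had one, against 14.5% before. In Parental −OHT cells the scores had been 20.2 at Zic1, 36.9 at Zic2 and 15.3 at Zic5. Scores of a list called against input do not give the amount of the mark, and how much was lost cannot be read from them. The paper reports a global loss of the mark by western blot in Parental and RING1B I53S cells with OHT. By ChIP-seq scaled to a spike-in, it reports complete loss in RING1B I53S cells at PRC1 targets.

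In RING1B WT +OHT cells the peaks were like those of Parental −OHT cells in place: 13 of 14 libraries had one at Zic1, Zic2 and Zic4 and 10 at Zic5. The exception was RYBP, a subunit of variant PRC1, which had no peak at any Zic gene where 2.75% of all genes had one, and had scored 16.7 at Zic1 and Zic4 and 10.7 at Zic2 in Parental −OHT cells, where 6.7% had one. RING1B scored 157 at Zic1, 61.8 at Zic2 and 11.1 at Zic5 (8.03% of all genes with a peak), and SUZ12 435, 150 and 22.9 (14%). PCGF2 had peaks at Zic1 (352) and Zic2 (97.2) and none at Zic5 (7.63%).

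In RING1B I53S +OHT cells, 9 of 14 libraries had a peak at Zic1 and 10 at Zic4, but 3 at Zic2 and 0 at Zic5. The 2 MTF2 libraries among them differed at Zic2. Library 1 had no peak there, and 6.66% of all genes had one in its list. Library 2 had 3, with scores up to 19.2, and 14.7% of all genes had one. RING1B and CBX7 had no peak at any of the 4 genes, while 2.12% and 0.0869% of all genes had one, and PCGF2 had 2, shared by Zic1 and Zic4, that scored up to 23.7 (1.46% of all genes with a peak). H2AK119ub1, which needs an active RING1A or RING1B, had peaks at Zic1 and Zic4 (21.9) and at Zic2 (15.7) and none at Zic5, where 6.61% of all genes had one. As above, these scores do not give the amount of the mark, which the paper reports as lost in these cells. SUZ12 scored 30.6 at Zic1 and 14.3 at Zic2 (7.52%). H3K27me3 scored 17.3 at Zic1 and 20.8 at Zic4 and had no peak at Zic2 (14.4% of all genes with a peak). Zic2 and Zic5 lie in the region of lower RNA level on chromosome 14, and the part of that in the missing peaks was not tested.

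Before OHT, where MTF2 and JARID2, subunits of the 2 forms of PRC2, were mapped in both clones, RING1B I53S cells had peaks at Zic2 and Zic5 as well. MTF2 scored 159 at Zic2 and 17.9 at Zic5 in I53S −OHT cells, and 263 and 35.9 in RING1B WT −OHT cells. At Zic1 the scores were 734 and 905. JARID2 scored 175 and 256 at Zic2.

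With 48 h of OHT, MTF2 peaks were found at Zic1 in all 3 lines, with scores of 134 in Parental, 154 in RING1B I53S and 618 in RING1B WT cells. At Zic2 they were 50.6, 49.8 and 210. In cells without MTF2, SUZ12 had a peak at Zic1 in Parental −OHT (167) and RING1B WT +OHT cells (160.5) and at Zic2 (31.8 and 40.1), and neither SUZ12 nor H3K27me3 had one at any Zic gene in Parental MTF2 KO +OHT or RING1B I53S MTF2 KO +OHT cells. In those libraries 3.03% and 1.25% of all genes had a SUZ12 peak.

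**Figure D4:**
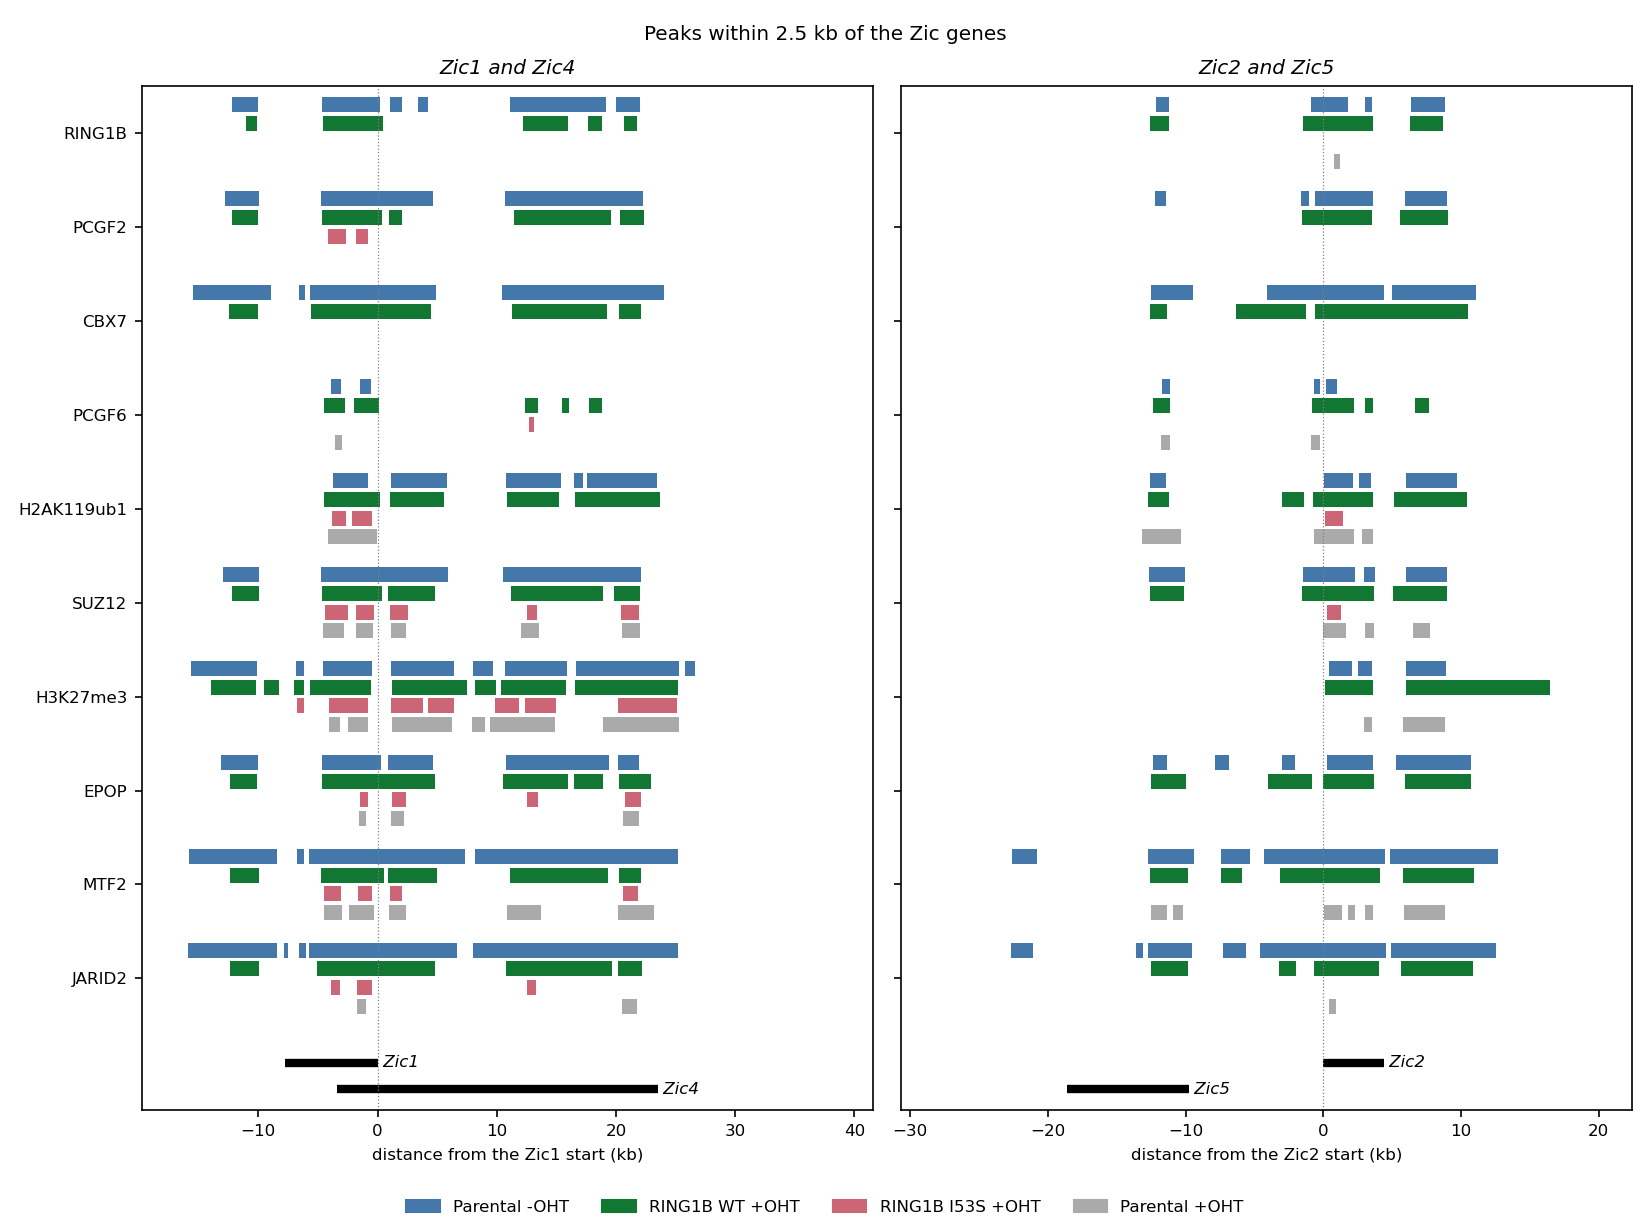
Peaks within 2.5 kb of the Zic genes for 10 antibodies in 4 conditions (coloured bars, Parental −OHT, RING1B WT +OHT, RING1B I53S +OHT and Parental +OHT), drawn to scale as distance in kb from the start of Zic1 or Zic2, with the gene spans in black. In Parental −OHT cells, 12 of 12 antibody lists had a peak at Zic1 and Zic2, and in RING1B I53S +OHT cells 3 of 14 libraries had one at Zic2. These counts include lists that are not drawn: AEBP2, RYBP and library 2 of MTF2 and JARID2. MTF2 library 2 is among the 3 with a peak at Zic2.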

How the data were processed

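RNA was measured by SMART-seq2 RNA-seq in 16 libraries and chromatin by ChIP-seq. Per the submitters' processing notes, tools included STAR 2.7, featureCounts, DESeq2 1.20, Bowtie 1.2.2 and MACS2 2.1.1. The authors deposited raw counts per gene name, used here, and peak lists on mm10 with −log10 p scores of at least 10. Deposited normalized counts and tables of the authors' own comparisons (log2 fold changes and p-values) were not used. 108 gene names stand for several gene models.

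Counts were scaled by TMM, and genes that passed filterByExpr were fitted with edgeR 4.0.16 in R 4.3.3: 12 RING1B libraries together (18154 genes, biological coefficient of variation 0.181) and 4 Eed fl/fl libraries apart (25170 genes, 0.251). SE is the absolute log2 fold change divided by the square root of F. The script was tested on simulated data. DESeq2 1.42.0 was an alternative. Intervals and floors cover counting error only. Peaks were assigned to GENCODE M21 genes, the same build, within 2.5 kb of the gene body. One RYBP library with no clear treatment label was compared with none. A further gene is not reported here.

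Named genes were the 4 Zic genes, the targeted genes, tested neighbours within 500 kb, the 3 genes most correlated with each Zic gene, and at most 4 per list. Members and lists were chosen with earlier results of these data known. Alternatives were another scaling, filter, tool, block, threshold, window, and each library left out.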

Additional observations from a re-analysis of the deposited data

Results flagged for a closer look

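The response to OHT of Zic5 differed between RING1B WT and Parental cells by 1.70 on the log2 scale in an interaction test across the table (edgeR adjusted p = 0.02479), a call lost without any one of 7 libraries. Zic5 fell with OHT in the Parental line, and it was lower in the 2 RING1B WT +OHT libraries than in the 2 −OHT libraries by an amount that was not called.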

How the results depend on the processing

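With 2 replicates per group, genes with few reads are the least certain. Zic4 in the Parental line had a log2 fold change of 3.72 under DESeq2 (adjusted p = 0.0703, not called). With at least 10 counts in every library, Zic1 and Zic4 could not be tested, leaving 2 called genes in Parental and 0 in RING1B I53S cells. Without a fold threshold, 4 genes were called in RING1B I53S cells (with Zic2 at -0.99 and Zic5 at -0.96). Of these, Zic2 and Zic5 were chosen by their lower level in that line. The RING1B WT minus Parental difference of Zic4 was -0.14 under DESeq2 and 0.83 in edgeR, and the cause was not tested. Zic1 and Zic4 were not tested in RING1B WT cells with only that comparison's libraries. The median over distal chromosome 14 with no filter was -0.69 and -0.70 for RING1B I53S against Parental cells without and with OHT, and -1.01 and -0.62 against RING1B WT cells; against RING1B WT without OHT it was -1.03 with at least 10 counts in every library. From 72 Mb, chosen after seeing the data, it was -0.95 and -0.95 against RING1B WT cells. Libraries with a peak at Zic5 numbered 17 with scores of at least 20. Leaving out each library in turn gave ranges of 2.76 to 6.60 for Zic4 in Parental cells, of -3.48 to 1.92 for Zic4 and 1.52 to 1.91 for Zic5 in the RING1B WT minus Parental difference with 0 to 1 genes called, and of -0.84 to 0.18 for Zic1 (a difference that could not be estimated), 0.72 to 1.61 for Zic2, 0.0443 to 3.94 for Zic4 and 1.03 to 1.93 for Zic5 in the RING1B I53S minus Parental difference. In the RING1B WT minus Parental difference Zic1 ran from -6.65 to -2.43 and Zic2 from 0.72 to 1.61. In Eed fl/fl cells the ranges were 0.40 to 3.33 for Zic1, -0.0143 to 0.33 for Zic2, -0.18 to 0.70 for Zic4 and -0.56 to -0.10 for Zic5, in RING1B WT cells 2.08 to 6.31 for Zic1 and 0 to 5.40 for Zic4, and in RING1B I53S cells -1.47 to -0.58 for Zic5. For RING1B WT against Parental +OHT cells they were -2.86 to -1.84 for Zic1, 0.30 to 1.18 for Zic2, -6.66 to -1.24 for Zic4 and 1.30 to 1.69 for Zic5, with 0 to 2 genes called, 0 with at least 10 counts in every library, and 2 with only that comparison's libraries (Zic5 at 1.504) or no fold threshold (Zic5 at 1.48). Zic5 in RING1B I53S against Parental +OHT cells ran from -0.82 to 0.0753. Distal medians ran from -1.16 to -0.77 and -1.02 to -0.84 against Parental, and from -1.11 to -0.99 and -1.11 to -0.95 against RING1B WT cells, without and with OHT. The labels give shared replicate numbers but no pairing, and deviations of same-numbered libraries correlated at 0.101 in Parental, 0.063 in RING1B WT, 0.198 in RING1B I53S and 0.459 in Eed fl/fl cells. The replicate block changed no Zic call (Zic5 in Parental cells -2.51), and moved the number of all called genes from 3081 to 3176 in Parental, 251 to 291 in RING1B WT, 2511 to 2606 in RING1B I53S and 2 to 161 in Eed fl/fl cells.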
